A study of Mus musculus with 8 samples.

Results

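The polyamine genes are the enzymes that make, acetylate and oxidise putrescine, spermidine and spermine, together with the antizyme proteins that hold the first enzyme of the pathway in check. The set was given as 10 symbols: Odc1, Amd1, Srm, Sms, Smox, Sat1, Paox, Oaz1, Oaz2 and Azin1. Smox was chosen by its CPM in the 8 libraries, for a strong and tight difference between the populations compared here, and the others for their place in the pathway. Amd1 is not analysed here, which leaves 9 of 18790 genes with a symbol. All 9 passed the filter on low counts, as did 11965 genes in all.

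The populations were sorted from the femoral marrow of untreated C57BL/6 mice carrying Csf1r-EGFP, a transgene in which the promoter of the macrophage growth factor receptor drives green fluorescent protein. CD11b+ cells were sorted as positive for CD11b, F4/80 and VCAM1, negative for Ly6G and low for the fluorescent protein. CD11b- cells were sorted as negative for CD11b and positive for F4/80, VCAM1 and the fluorescent protein. Each population had 4 biological replicates, and RNA was made into libraries with SmartSeq2, a full-length cDNA protocol for small RNA amounts. The labels give neither age nor sex, and do not say whether a replicate is 1 animal or a pool.

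CD11b+ libraries held 36604660 to 47951234 counts and CD11b- libraries 27462607 to 35160747. Marker lists differed widely between the populations. The summed level of 12 neutrophil granule genes was 129452 to 148338 CPM (counts scaled to the library total) in CD11b+ libraries and 639 to 6918 CPM in CD11b- libraries, and that of 6 eosinophil genes 6671 to 19079 CPM in CD11b+ and 68.3 to 468 CPM in CD11b-. The summed level of 13 erythroid genes was 773 to 1257 CPM in CD11b+ libraries and 33432 to 44816 CPM in CD11b- libraries. That of 9 B precursor genes was 50.2 to 112 CPM in CD11b+ and 800 to 1797 CPM in CD11b-, and that of 10 cell cycle genes 4326 to 4502 CPM in CD11b+ and 12268 to 15852 CPM in CD11b-. Macrophage genes were present in both. The summed level of 15 resident macrophage genes was 1793 to 2071 CPM in CD11b+ libraries and 1433 to 1903 CPM in CD11b- libraries. Apoe, the largest of them, averaged 707 CPM in CD11b+ and 740 CPM in CD11b-. Genes on this list to which the gates refer were higher in CD11b+. Vcam1 averaged 393 CPM against 107 CPM in CD11b-, and Adgre1, a further gate antigen gene, 91.1 CPM against 22.9 CPM. Csf1r averaged 85.2 CPM against 35.8 CPM in CD11b-, although CD11b+ cells were sorted as low for its reporter. By the test described below, 4 of the 15 were higher and 3 lower in CD11b+. No marker on these lists was at 0 in every library of a population. In such bulk samples fewer cells of a type and less RNA per cell cannot be told apart.

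As background, ornithine decarboxylase (Odc1) makes putrescine, and spermidine synthase (Srm) and spermine synthase (Sms) extend it with aminopropyl groups taken from decarboxylated S-adenosylmethionine. Spermine returns to spermidine either directly, through spermine oxidase (Smox), or through acetylation by Sat1 and oxidation by Paox, and both oxidases release hydrogen peroxide. Antizymes (Oaz1, Oaz2) bind ornithine decarboxylase and send it to the proteasome, and antizyme inhibitor (Azin1), a relative of the decarboxylase without its activity, binds antizyme in its place. Polyamines are abundant in growing cells, and spermidine supplies the hypusine of the translation factor eIF5A.

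The genes of the pathway differed in both directions. Odc1 and Azin1 were lower in CD11b+ cells, by 9.98-fold and 4.26-fold, and Sat1 was 4.42-fold higher. Srm, Sms, Paox, Oaz1 and Oaz2 did not pass the test. Smox, whose difference chose it, averaged 38.7 ± 7.88 CPM over CD11b+ libraries and 1176 ± 118 CPM over CD11b- libraries (SD, n = 4 each). Among the 8 genes other than Smox, 1 was called higher and 2 lower, or 37.5%. A call means an adjusted p under 0.05 in the quasi-likelihood test of edgeR, with Benjamini-Hochberg adjustment over all tested genes. Of all 11965 tested genes 29.7% were called, 14.6% higher and 15.0% lower, so the share called is near the background. The median log2 fold of these 8 genes was 0.42, against -0.01 over all tested genes.

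**Figure D1:**
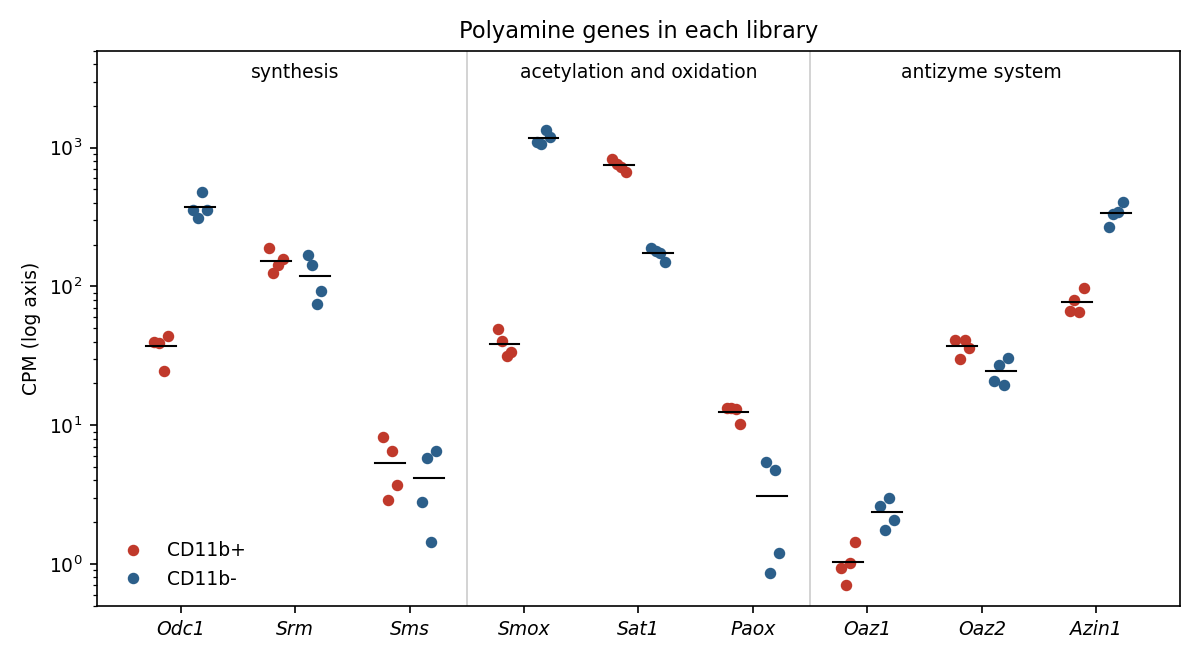
CPM (log axis) of each polyamine gene in each of the 4 CD11b+ and 4 CD11b- libraries, with points for libraries and bars for means. Odc1, Smox, Oaz1 and Azin1 lie lower and Sat1 and Paox lie higher in every CD11b+ library than in any CD11b- library, whereas Srm, Sms and Oaz2 overlap.

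Start-site windows of the 3 genes with the largest folds among those with a sequence are shown because Smox and Odc1 have their high levels in CD11b- libraries and Sat1 in CD11b+ libraries. Each window runs from 250 bases before to 50 bases after the RefSeq start (build GRCm38.p6, whereas mm9 is the build named in the submitters' processing notes), written 5′ to 3′ on the gene's strand. Capitals mark GGGCGG, the core of the GC box, on either strand.
Smox, chr2:131491612-131491911, + strand: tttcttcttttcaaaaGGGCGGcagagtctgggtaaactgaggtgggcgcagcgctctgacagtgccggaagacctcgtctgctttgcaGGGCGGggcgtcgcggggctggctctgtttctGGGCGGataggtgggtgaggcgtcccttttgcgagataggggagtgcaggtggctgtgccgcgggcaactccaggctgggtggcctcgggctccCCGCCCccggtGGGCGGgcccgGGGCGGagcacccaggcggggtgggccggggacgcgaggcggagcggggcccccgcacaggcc
Odc1, chr12:17544623-17544922, + strand: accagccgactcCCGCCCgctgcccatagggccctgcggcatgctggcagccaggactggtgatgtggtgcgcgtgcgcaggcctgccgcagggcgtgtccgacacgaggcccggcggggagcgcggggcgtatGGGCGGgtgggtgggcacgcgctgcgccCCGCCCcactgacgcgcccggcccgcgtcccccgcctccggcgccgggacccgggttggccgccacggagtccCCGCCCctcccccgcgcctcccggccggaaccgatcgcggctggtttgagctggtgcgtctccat
Sat1, chrX:155216400-155216699, - strand: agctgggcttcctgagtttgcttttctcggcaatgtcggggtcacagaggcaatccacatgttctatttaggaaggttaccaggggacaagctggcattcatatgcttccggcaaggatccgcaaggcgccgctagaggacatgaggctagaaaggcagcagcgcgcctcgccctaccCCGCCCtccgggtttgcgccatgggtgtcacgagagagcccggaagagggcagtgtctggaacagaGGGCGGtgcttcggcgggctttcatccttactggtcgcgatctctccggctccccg
The Smox window held 6 matches, the Odc1 window 4 and the Sat1 window 2, and the windows were 71.0%, 78.0% and 60.3% G or C. Besides these, the Oaz2 window held 4, each Paox window 3, the Sms windows 0 and 4, the Amd1 window 1 and the Oaz1 window 0. Any link of these counts to levels was not tested. Of 8 polyamine genes with such a window, Amd1 included, 7 had a match in any of their windows. Of all 32851 mouse windows, whose median G or C content was 52.7%, 35.7% had a match. Sms and Paox have more than a single window, so the count per gene and the share per window are not the same measure. Matches of GGGCGG can overlap each other where the bases repeat, as in the windows of Sms, Paox and Oaz2. None of the 8 genes had AGATAA, which 11.2% of windows hold. AGATAA is only a form of the GATA motif, and other forms, such as the AGATAG of the Smox window, were not counted. Among these genes, 1 had CACGTG (the E-box bound by Myc and Max, Sms), which 7.15% hold, and 1 had TATAAA (Oaz1), which 13.6% hold. Both strands were searched, but no bases outside the windows, such as those of introns, were.

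Of the synthesis genes, Odc1 was called lower. It stood at 39.8, 39.3, 24.7 and 44.0 CPM in CD11b+ replicates 1 to 4, against 353, 309, 482 and 358 CPM in CD11b- replicates 1 to 4. Every CD11b+ library lay below every CD11b- library, and the lowest value of each population was in a different replicate number. The log2 fold was -3.32 (SE 0.25, 95% interval -3.88 to -2.76, adjusted p = 9.81e-06). Of the 50-base stretches of the longest Odc1 transcript, 42.2% also occur in transcripts of other annotated genes such as Gm7993, so counting could have split its reads.

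Srm, which makes spermidine, stood at 190.0, 124, 142 and 159 CPM in CD11b+ libraries, against 168, 142, 75.2 and 93.0 CPM in CD11b- libraries. The groups overlapped, and CD11b- replicates 1 and 2 lay within the CD11b+ range. The log2 fold was 0.42 (SE 0.24, 95% interval -0.13 to 0.96, adjusted p = 0.246). CD11b- replicates 1 and 2 also had the highest sums of neutrophil granule genes of that population, 6918 and 4552 CPM, against 2242 and 639 CPM in replicates 3 and 4. Without these 2 libraries, which also had the most Mpo, a granule enzyme gene, the log2 fold of Srm was 0.89 and the gene was called higher (adjusted p = 0.0202). These libraries also held the most Srm of their population, so leaving them out was bound to raise the fold. The part of granulocyte RNA in the CD11b- value was not tested.

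Sms, which turns spermidine into spermine, was scarce, at 8.22, 2.89, 6.47 and 3.73 CPM in CD11b+ libraries and 2.81, 5.80, 1.44 and 6.48 CPM in CD11b- libraries. The populations overlapped. The log2 fold of 0.43 had a 95% interval of -1.20 to 2.06 (adjusted p = 0.726), which leaves room for differences in either direction. The pseudogene Sms-ps and other gene models share 28.7% of the 50-base stretches of the longest coding Sms transcript.

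**Figure D2:**
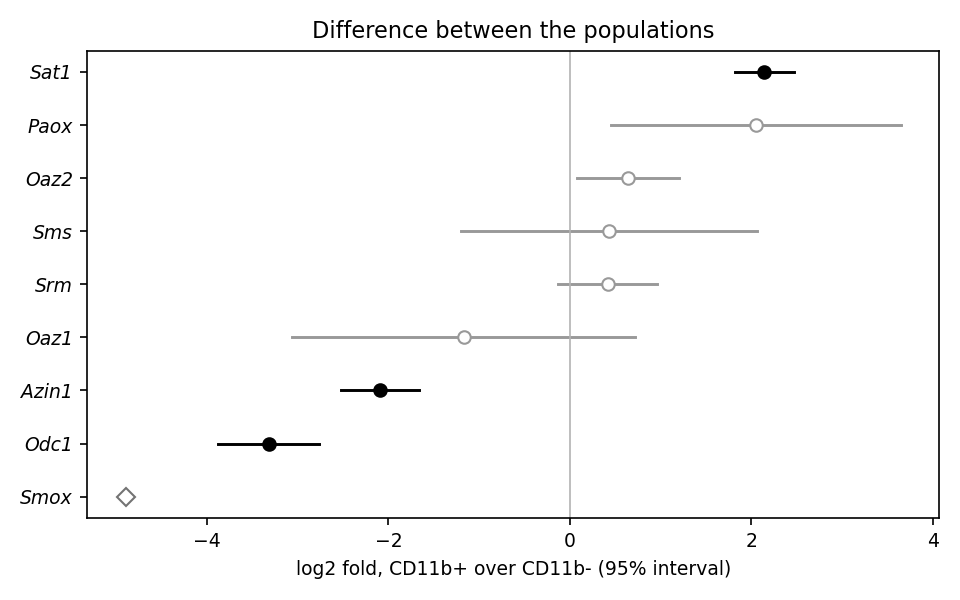
Log2 fold (CD11b+ over CD11b-) of each polyamine gene with its 95% interval, filled points having an adjusted p under 0.05. The diamond is Smox, shown at -4.89 without an interval because it was picked for this difference. Sat1 stands at 2.14, Azin1 at -2.09 and Odc1 at -3.32.

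Of the genes of polyamine breakdown other than Smox, Sat1 was called higher and Paox was not called. Smox, which oxidises spermine itself, stood at 49.1, 40.3, 31.6 and 33.8 CPM in CD11b+ libraries, against 1106, 1068, 1334 and 1195 CPM in CD11b- libraries. The coefficient of variation was 20.4% in CD11b+ and 10.1% in CD11b-. The fitted difference was 29.6-fold lower in CD11b+ (log2 -4.89, SE 0.22), given as a description, since Smox was picked for it. No 50-base stretch of the longest coding Smox transcript occurs in a transcript of another annotated gene, and no Smox exon overlaps an exon of another gene.

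Sat1, which acetylates spermidine and spermine, stood at 832, 763, 720 and 665 CPM in CD11b+ libraries, against 189, 181, 174 and 150 CPM in CD11b- libraries. Both populations were tight, with coefficients of variation of 9.49% in CD11b+ and 9.67% in CD11b-. The lowest CD11b+ library lay above the highest CD11b- library. Sat1 was higher in CD11b+ with a log2 fold of 2.14 (SE 0.15, 95% interval 1.82 to 2.47, adjusted p = 5.71e-06).

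Paox, which oxidises the acetylated products of Sat1, was at 13.3, 13.3, 13.1 and 10.2 CPM in CD11b+ libraries, against 5.44, 0.853, 4.76 and 1.20 CPM in CD11b- libraries. The groups did not overlap, but the CD11b- libraries fell into a higher and a lower pair and varied by 77.4% of their mean. The log2 fold was 2.05 (SE 0.71, 95% interval 0.45 to 3.64) and missed the threshold (adjusted p = 0.0561). It was called higher without CD11b- replicate 1 (adjusted p = 0.0469) or CD11b- replicate 3 (0.0466), the libraries of the higher pair, and over all alternatives the adjusted p ran from 0.00777 to 0.112. Exons of Paox overlap those of Echs1, a mitochondrial enzyme gene on the opposite strand, which was itself higher in CD11b+ at 117 to 144 CPM against 36.4 to 63.0 CPM in CD11b-. The protocol keeps no strand information, so reads of the overlap cannot be assigned, and the part of Echs1 in the Paox value was not tested. Other gene models such as Gm19680 share 28.9% of the 50-base stretches of the longest coding Paox transcript.

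**Figure D3:**
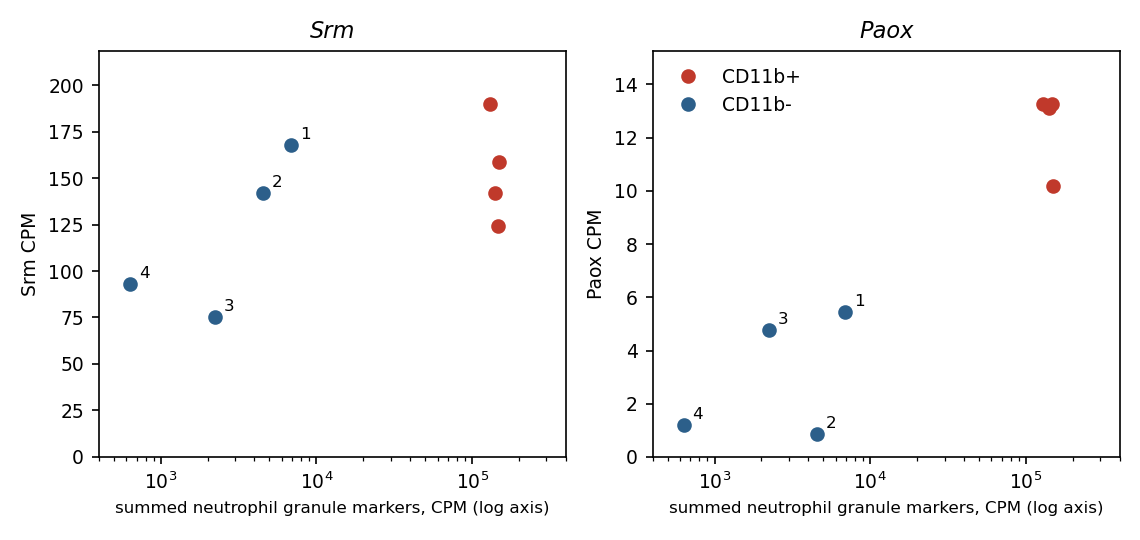
CPM of Srm (left) and Paox (right) against the summed CPM of 12 neutrophil granule genes (log axis) in the 4 CD11b+ and 4 CD11b- libraries, with CD11b- points labelled by replicate. CD11b- replicates 1 and 2 have the higher granule sums and the higher Srm values of their population, whereas the higher Paox values are those of CD11b- replicates 1 and 3.

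Of the antizyme system only the inhibitor was called. Azin1 stood at 66.5, 79.8, 65.5 and 97.9 CPM in CD11b+ libraries, against 269, 333, 345 and 407 CPM in CD11b- libraries. The populations were far apart, the highest CD11b+ library lying below the lowest CD11b- library. Azin1 was lower in CD11b+ with a log2 fold of -2.09 (SE 0.19, 95% interval -2.52 to -1.66, adjusted p = 3.19e-05). The antisense gene model Gm49077 overlaps Azin1 and shares 6.43% of the 50-base stretches of its longest coding transcript. Reads of the overlap cannot be told apart.

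Oaz2 stood at 41.2, 29.9, 41.4 and 36.1 CPM in CD11b+ libraries, against 20.8, 27.0, 19.6 and 30.6 CPM in CD11b- libraries. CD11b- replicate 4 lay just above CD11b+ replicate 2, and these were the only libraries that crossed. The log2 fold was 0.64 (SE 0.25, 95% interval 0.08 to 1.20, adjusted p = 0.0847). DESeq2 called Oaz2 higher (adjusted p = 0.0212), and the range over all alternatives was 0.0212 to 0.214.

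Oaz1 was given few counts, at 0.929, 0.709, 1.02 and 1.45 CPM in CD11b+ libraries (28 to 59 counts), against 2.60, 1.76, 2.98 and 2.08 CPM in CD11b- libraries (57 to 97 counts). The libraries did not overlap, yet the log2 fold of -1.17 had a 95% interval of -3.06 to 0.72 (adjusted p = 0.358). The pseudogene Oaz1-ps shares 52.2% of the 50-base stretches of the longest coding Oaz1 transcript. How the counting treated reads with several matches is not known here, so the level of Oaz1 is uncertain. Among the 8 tested genes other than Smox, 5 (62.5%) had libraries that did not overlap between the populations, and this held for 36.4% of all tested genes.

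Levels of different genes were set side by side per kb of exon. In CD11b+ libraries Sat1 came first at 269 ± 25.5 CPM per kb, then Srm at 96.1 ± 17.5 CPM per kb. Oaz2, Azin1, Odc1 and Smox followed at 12.4, 12.4, 10.8 and 9.94 CPM per kb, with ranges over libraries that overlapped. Paox (2.54 CPM per kb), Sms (0.886) and Oaz1 (0.402) came last, and the ranges of the last pair overlapped.

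In CD11b- libraries Smox came first at 302 ± 30.4 CPM per kb and did not overlap Odc1 at 110 ± 21.8 CPM per kb. Odc1 overlapped Srm (74.7 CPM per kb), Srm overlapped Sat1 (62.5), and Sat1 overlapped Azin1 (54.1). Oaz2 stood apart at 8.20 CPM per kb, and Oaz1, Sms and Paox overlapped between 0.174 and 1.17 CPM per kb. By level per kb among 11525 tested genes with a length, Smox ranked 3932 in CD11b+ and 125 in CD11b-, Sat1 114 in CD11b+ and 866 in CD11b-, Odc1 3729 in CD11b+ and 444 in CD11b-, and Srm 460 in CD11b+ and 718 in CD11b-. Levels per kb may depend on how reads with several matches were counted, which is not known here. The share of 50-base stretches found in other genes was taken over the longest coding transcript of each gene. It was 0% for Smox, 2.40% for Srm, 6.43% for Azin1, 7.28% for Sat1 and 12.0% for Oaz2. For Sms it was 28.7%, for Paox 28.9%, for Odc1 42.2% and for Oaz1 52.2%. The part of such reads in the order of the genes was not tested. Levels per kb also depend on the length used. With the longest transcript in place of all exons, those of Sat1, Smox, Sms, Oaz2 and Odc1 were over 1.5 times higher. Sat1 was then at 551 CPM per kb in CD11b+ and 128 in CD11b-, Smox at 16.8 in CD11b+ and 512 in CD11b-, and Odc1 at 16.7 in CD11b+ and 170.2 in CD11b-.

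**Figure D4:**
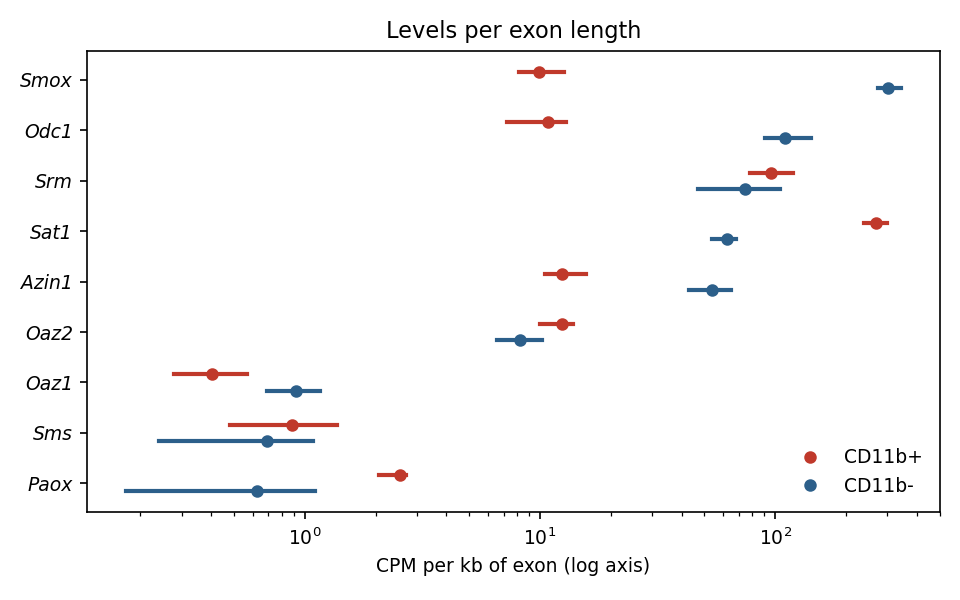
CPM per kb of exon (log axis) of each polyamine gene in CD11b+ and CD11b- libraries, points being means over 4 libraries and lines running from the lowest to the highest library. Sat1 leads in CD11b+ at 269 and Smox in CD11b- at 302.

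Ratios of genes within a library need no scaling between libraries, but their size carries the limits of length and of shared stretches given for the levels. Per kb, the ratio of Srm to Odc1 was 6.75 to 12.2 in CD11b+ and 0.332 to 1.01 in CD11b-. The ratio of the inhibitor gene Azin1 to the antizyme gene Oaz2 was 0.757 to 1.30 in CD11b+ and 5.89 to 8.39 in CD11b-. No ratio to Oaz1, whose level is uncertain, was taken, so this is not the balance of Azin1 to all antizymes. Relative to Odc1 itself, Azin1 was at 0.909 to 1.45 in CD11b+ and 0.389 to 0.618 in CD11b-.

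The differences in Odc1, Smox and Azin1 had the same direction as those of the erythroid, B precursor and cell cycle markers, of which 13 of 13, 7 of 7 and 10 of 10 tested genes were lower in CD11b+. Sat1 had the direction of the neutrophil granule and eosinophil markers, of which 11 of 12 and 4 of 6 tested genes were higher. Resident macrophage genes were split, with 4 of 15 higher and 3 lower. Smox was picked for its difference, and any gene that differs shares its direction with some of these lists. The part of cell type in the polyamine values was not tested.

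Around the pathway, 5 further lists and the Myc and Max network gave 34 tested genes of 41 listed, of which 1 was higher and 6 lower in CD11b+ (background 14.6% and 15.0%). The median log2 fold of these 34 was -0.18. An unadjusted p under 0.05 was found for 11 of these 34 and for 4601 of all 11965 tested genes. The counts of such genes per list are to be read beside that background. For ornithine supply, 0 of 5 tested genes were called by edgeR or DESeq2 and 0 had an unadjusted p under 0.05. These included Oat, ornithine aminotransferase, at 37.5 ± 11.7 CPM in CD11b+ libraries and 42.6 ± 5.43 CPM in CD11b- libraries (adjusted p = 0.728), and Aldh18a1, which makes the precursor of proline and ornithine, at 77.7 ± 9.64 CPM in CD11b+ libraries and 88.6 ± 32.0 CPM in CD11b- libraries (adjusted p = 0.745). Arginase 1 (Arg1), which makes ornithine from arginine, reached at most 0.938 CPM in a CD11b+ library and 2.46 CPM in a CD11b- library, and was at 0 in 1 CD11b+ and 3 CD11b- libraries.

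Methionine genes, which supply S-adenosylmethionine and take back the byproduct of polyamine synthesis, had 2 of 8 lower and 0 higher, and 3 had an unadjusted p under 0.05. Mat2b, the regulatory subunit of methionine adenosyltransferase, was 2.07-fold lower in CD11b+, with 121 ± 18.8 CPM against 258 ± 29.4 CPM in CD11b- (adjusted p = 0.000648), and the salvage enzyme gene Apip 2.71-fold lower, with 55.8 ± 14.1 CPM against 155 ± 22.0 CPM in CD11b- (adjusted p = 0.000580). Mat2a, the catalytic subunit, averaged 198 ± 23.2 CPM in CD11b+ libraries and 216 ± 40.1 CPM in CD11b- libraries (log2 -0.09, 95% interval -0.47 to 0.29, adjusted p = 0.758). The salvage enzyme gene Enoph1, with an unadjusted p under 0.05, averaged 28.3 ± 11.3 CPM in CD11b+ libraries and 12.0 ± 5.38 CPM in CD11b- libraries (log2 1.29, adjusted p = 0.0590). DESeq2 called it higher (0.0188), as did edgeR without CD11b+ replicate 1 (0.0367) or CD11b- replicate 4 (0.0433), and the adjusted p over all alternatives ran from 0.0188 to 0.175.

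None of the 4 hypusine genes passed edgeR's test. Of these, 2 had an unadjusted p under 0.05, and DESeq2 called Eif5a2. Eif5a, the factor that carries hypusine, was at 1719 ± 218 CPM in CD11b+ libraries and 1560 ± 220 CPM in CD11b- libraries (adjusted p = 0.411). Dhps, which transfers the spermidine group, averaged 29.3 ± 4.24 CPM in CD11b+ libraries and 15.6 ± 6.15 CPM in CD11b- libraries (adjusted p = 0.101), and Dohh, which completes hypusine, 58.0 ± 11.3 CPM in CD11b+ libraries and 67.9 ± 10.9 CPM in CD11b- libraries (adjusted p = 0.564). Eif5a2, a second eIF5A gene, averaged 1.31 ± 1.58 CPM in CD11b+ libraries and 19.7 ± 12.0 CPM in CD11b- libraries (adjusted p = 0.102, and 0.0224 by DESeq2, with a range over alternatives of 0.0224 to 0.195).

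Of 6 tested transport genes 1 was called, the only one with an unadjusted p under 0.05. Slc3a2, the heavy chain shared by several amino acid transporters, was 6.26-fold lower in CD11b+, with 66.5 ± 9.11 CPM against 426 ± 41.6 CPM in CD11b- (adjusted p = 4.00e-06). Azin2, a second antizyme inhibitor, averaged 1.32 ± 0.935 CPM in CD11b+ libraries and 0.109 ± 0.194 CPM in CD11b- libraries (adjusted p = 0.245).

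Myc, a transcription factor known to drive Odc1, averaged 158 ± 41.1 CPM in CD11b+ libraries and 153 ± 62.3 CPM in CD11b- libraries (log2 0.09, 95% interval -0.58 to 0.75, adjusted p = 0.869). In its network, 3 of 10 tested genes were lower and 1 higher, and 5 had an unadjusted p under 0.05. The Max partners Mxd3 and Mxd1, which repress Myc sites, were 4.51-fold and 2.59-fold lower in CD11b+ (adjusted p = 0.000196 and 0.00126), and Mlx, which encodes a Max-like protein, was 2.45-fold higher (adjusted p = 0.00669). Mxi1 was 1.48-fold lower (adjusted p = 0.0483), a call lost when any 1 of the 4 CD11b+ libraries, CD11b- replicate 2 or CD11b- replicate 3 was left out and without the low-count filter (adjusted p = 0.0692), with adjusted p from 0.0216 to 0.126 over all alternatives. Mxd4, a further Max partner, averaged 29.5 ± 10.2 CPM in CD11b+ libraries and 14.5 ± 5.55 CPM in CD11b- libraries and was not called (log2 1.06, adjusted p = 0.0726). DESeq2 called it higher (0.0270), as did edgeR without CD11b+ replicate 2 (0.0496) or CD11b- replicate 1 (0.0487), and the range over all alternatives was 0.0270 to 0.209.

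**Figure D5:**
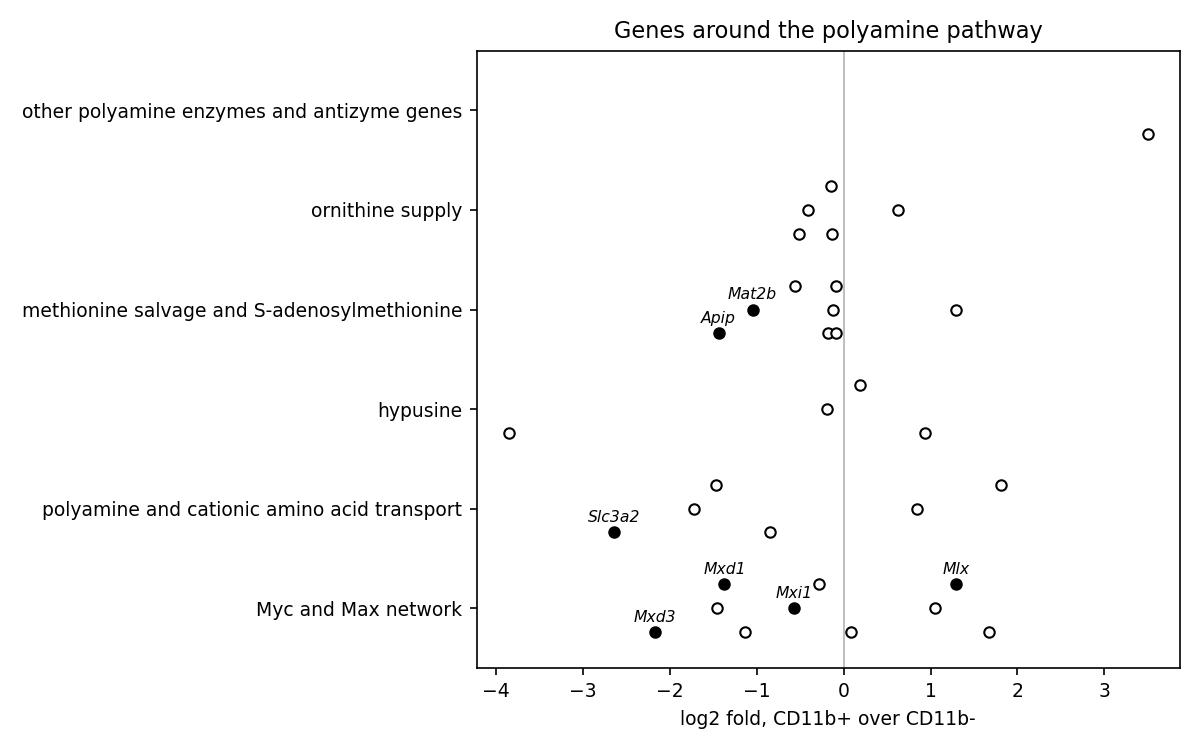
Log2 fold (CD11b+ over CD11b-) of the 34 tested genes on the lists around the polyamine pathway, filled and named where the adjusted p was under 0.05. The 6 genes called lower lie between -2.65 (Slc3a2) and -0.57 (Mxi1), and Mlx is called higher at 1.29.

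Outside these lists, the 5 genes whose log2(CPM + 1) correlated best with that of Smox over the 8 libraries, among 7913 genes with a mean of at least 10 CPM, were Usp18, Tspan33, Isg20, Cul4a and Dnajb1, with Pearson r of at least 0.998. The 8 points share the split into 2 populations, which sets most of r. Usp18, a protease that removes the ubiquitin-like protein ISG15, ranged from 6.53 to 9.18 CPM in CD11b+ libraries and from 79.4 to 101 CPM in CD11b- libraries. The tetraspanin gene Tspan33 was at 23.1 to 46.5 CPM in CD11b+ libraries and 1703 to 2168 CPM in CD11b- libraries, and the exonuclease gene Isg20 at 47.0 to 62.6 CPM in CD11b+ libraries and 883 to 1166 CPM in CD11b- libraries. Cul4a, a ubiquitin ligase scaffold, was at 102 to 135 CPM in CD11b+ libraries and 620.0 to 796 CPM in CD11b- libraries, and the heat shock co-chaperone gene Dnajb1 at 164 to 196 CPM in CD11b+ libraries and 504 to 564 CPM in CD11b- libraries.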

How the data were processed

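RNA-seq of 4 CD11b+ and 4 CD11b- libraries was used. The deposited files per library hold whole-number counts per gene symbol, although their names say FPKM, and the authors' table holds CPM, which are these counts scaled to each library total. TopHat2, HTSeq 0.10.0, DESeq2 and mm9 are named in the submitters' processing notes, without role or order. No source used here gives the annotation, the strand setting or the treatment of reads with several matches. The 27 rows with numbers in place of symbols (0.205% to 0.514% of counts) were left out of the tests.

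Counts were tested with edgeR 4.0.16 in R 4.3.3 (TMM scaling, filterByExpr defaults, quasi-likelihood test, prior count 0.125, Benjamini-Hochberg adjustment over 11965 genes at 0.05, no covariate). The test was tried on simulated data first. Standard errors were worked back from the F statistic. Levels are deposited CPM, divided by the union of GENCODE M21 exons for comparisons between genes. Counts of every replicate pair differed by more than sampling noise (chi-square over degrees of freedom 125 to 217), and p-values measure the spread between these biological replicates.

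The genes, lists and tests were chosen with earlier results of these data known. Named were the polyamine genes, the called genes of the pathway lists, further list genes where a count of 5 or fewer was given, and the 5 genes closest to Smox. Enoph1 and Mxd4 were named after their values were seen. Alternatives were DESeq2 1.42.0, RLE scaling, library totals without scaling, no low-count filter, the replicate number as a block, leaving out each library or the CD11b- replicates 1 and 2, which had the most Mpo in that population, and the longest transcript as length.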

Additional observations from a re-analysis of the deposited data

Results flagged for a closer look

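Paox in CD11b+ was flagged because 1 library stood far from the others: replicates 1 to 3 lay between 13.1 and 13.3 CPM and replicate 4 at 10.2 CPM, a gap of 0.948 of the range, above the 95% critical value of Dixon for 4 samples. In all 18 groups of libraries were checked for the 9 genes, and chance flags about 1 in 20.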

How the results depend on the processing

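Odc1, Azin1 and Sat1 kept their direction and their calls under every alternative, with log2 folds of -3.50 to -3.12, -2.26 to -1.997 and 2.08 to 2.22, and the log2 fold of Smox ran from -5.01 to -4.77. The number of polyamine genes other than Smox called higher was 3 with DESeq2 (Sat1, Paox and Oaz2), 2 without CD11b- replicates 1 and 2 (the most Mpo and the most Srm), and 1 to 2 with single libraries left out, and 2 were called lower throughout. Calls over all genes moved too. Called higher were 1751 of 11965 in the main fit and 2277 of 17929 with DESeq2, where 4238 had no adjusted p. The number was 1772 of 13320 without that pair and 1456 to 1754 with single libraries left out. For the pathway lists 4 genes were called higher with DESeq2, 2 without that pair and 1 to 3 with single libraries left out. The longest transcript as length moved the ratio of Smox to Odc1 per kb in CD11b- to 3.05, against 2.77, and put Sat1 (128 CPM per kb) above Srm (89.2) there. No pairing by replicate number was seen (correlations of deviations 0.00240 to 0.0430, with 1 of 4 CD11b+ libraries closest to its own number). Because the populations hold different cells, this check cannot exclude that libraries with the same number came from the same mice. With the replicate block 3195 genes were called, against 3549, and 1 polyamine gene other than Smox was higher and 2 lower, as without it. Among genes that were never called, the sign of Arg1 turned with the block (log2 3.67) and with single libraries left out (-0.91 to 7.20), that of Myc (-0.10 to 0.35), Aldh18a1 (-0.30 to 0.092) and Mat2a (-0.19 to 0.017) with single libraries left out, and that of Aldh18a1 also without the Mpo pair (0.31). The cause of these changes was not tested. Among the polyamine genes, Oaz1 (28 to 97 counts a library) and Paox in CD11b- (30 to 155) had the fewest counts, and the part of depth in their spread was not tested.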

Other observations

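Some further genes of polyamine metabolism were too scarce to be tested and are given as values. Agmat, annotated as agmatinase, an enzyme that gives putrescine from agmatine, had no count in any CD11b+ library, which allows up to 0.0626 to 0.0820 CPM in a library, and stood at 8.80, 0, 4.52 and 0.910 CPM in CD11b- replicates 1 to 4. The antizyme gene Oaz3 was counted in 1 CD11b+ library at 0.203 CPM and in 3 CD11b- libraries at 2.56, 0.085 and 0.615 CPM. Sat2, a relative of Sat1, was counted only in CD11b- replicate 2, at 2.36 CPM. Otc, which uses ornithine in the liver urea cycle, was counted only in CD11b- replicates 1 and 3, at 0.947 and 0.399 CPM. These limits cover counting error only, since the reads carry no molecular identifiers.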
